A study of Macaca mulatta with 5 samples.

Results

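Loop-free domains of middle size are topologically associating domains (TADs) of 1.2 to under 3 Mb in which no chromatin loop was called in the Hi-C map of the same group. Members were chosen by the position of the called loops alone: a domain was taken as loop-free when no loop of that group's list had the midpoint of an anchor, the name for each foot of a loop, between its start and end. The saline map held 83 such domains among its 675 domains of that size (12.3%, 95% interval 9.91 to 15.0). The morphine map held 95 among 714 (13.3%, 10.9 to 16.02). Together these are 178 of the 2442 domains in both lists, and the sets of the 2 maps were kept apart throughout. They were compared with the 592 saline and 619 morphine domains of the same size that held at least 1 anchor, called loop-holding domains here.

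A TAD is a stretch of chromosome whose parts touch each other more often than they touch the flanking sequence, and its limits are called boundaries. A loop is a point of locally raised contact between a pair of loci. Many loops form where cohesin, the ring complex that extrudes chromatin into loops, is stopped by the DNA-binding protein CTCF, and such loops often join the edges of a domain. Others link promoters to enhancers. Domains can also arise from the segregation of active and inactive chromatin without a point of raised contact at their corners, and a loop too weak for the depth of a map is not called.

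The neurons came from the cortex of rhesus macaques (Macaca mulatta), all males of 3 to 4 years, and the maps address chromatin architecture after chronic morphine. Morphine, which acts on the mu-opioid receptor, was given under the skin 3 times daily over 90 days, starting at 3 mg/kg and ending at 15 mg/kg, and the control monkeys received saline on the same schedule. There were 3 morphine and 2 saline libraries from 2 monkeys per group, so some morphine libraries share a monkey (the labels used here do not say which). Each deposited list names a group and no library, so each was treated as 1 map pooled over its group, and the labelled cell type could not be checked because contact maps hold no marker genes.

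The pooling sets the limit of every value that follows. With 1 map per group there is no replicate check, and no difference between the maps or between classes of domain was tested. The 95% intervals of shares and medians are exact binomial intervals (Clopper-Pearson for shares, order statistics for medians). They cover the spread over domains, domain ends or loops within a map and leave out the spread between monkeys. Neighbouring domains, the ends of a domain and the loops of a domain are treated as independent, so the intervals over ends and loops may be too narrow. Intervals of anchor densities are Poisson intervals over anchors, and those of density ratios are binomial intervals over anchors. The morphine map was called with more data in its loop pixels: it held 8425 loops with 239042 contacts, and the saline map 5507 loops with 119909 contacts. Library totals were not used here, and the part of depth in the counts of loop-free domains was not tested. The rhesus assembly of the coordinates is not named, so domains are given by the positions of the files, and no gene or DNA sequence is assigned to them.

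Loop-free domains spanned the whole of the size range. Their median size was 2.12 Mb for saline members (1.84 to 2.32) and 1.88 Mb for morphine members (1.68 to 2.04), against 2.00 Mb for loop-holding domains in both maps (1.96 to 2.08 in each). The saline median lay above and the morphine median below that of loop-holding domains, and both intervals included 2.00 Mb. Longer domains were not loop-free less often in the saline map: 29 of 245 domains of 1.2 to under 1.8 Mb were loop-free, 23 of 223 of 1.8 to under 2.4 Mb and 31 of 207 of 2.4 to under 3 Mb, or 11.8%, 10.3% and 15.0%. The morphine share was 15.4% (41 of 267), 13.3% (33 of 248) and 10.6% (21 of 199) over the same classes. The order of the classes thus differed between the maps, and the intervals of all 3 classes overlapped in each.

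The limits of the size range fell inside a continuous series of domains without anchors. At the lower limit, 4 saline and 3 morphine members measured 1.2 Mb, while 4 saline and 2 morphine domains without anchors measured 1.16 Mb and were left out. The largest members measured 2.92 Mb, and 1 saline and 3 morphine domains without anchors measured 3 Mb. Below the size range, 48 of 257 saline and 48 of 270 morphine domains held no anchor of their map, and above it 42 of 266 and 49 of 260. Without regard to size, 14.4% of the saline and 15.4% of the morphine domains had none. On the other side of the anchor limit, 26 saline and 22 morphine domains of the size range held exactly 1 anchor. When loops had to pass an FDR of 0.01 against all 4 local backgrounds, 160 saline and 170 morphine domains were loop-free, so the membership depends on how strictly loops are called.

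The named examples at these limits lay on several chromosomes. The largest saline members were a chromosome 4 domain (74120001 to 77040000) and a chromosome 18 domain (60800001 to 63720000), both 2.92 Mb, followed by 1 on chromosome 5 from 93760001 to 96640000 (2.88 Mb). None of these 3 held a morphine anchor either. The largest morphine members were a chromosome 3 domain (144040001 to 146960000) and a chromosome 14 domain (89200001 to 92120000), 2.92 Mb each, with 7 and 2 saline anchors, and 1 on chromosome 2 from 15000001 to 17880000 (2.88 Mb), with 0. The smallest that were named, all of 1.2 Mb, began on chromosome 7 (88680001 and 128320001) and chromosome 11 (69680001) in the saline map. Those of the morphine map began on chromosome 3 (138080001), chromosome 17 (77440001) and X (74280001).

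Chromosome X held the highest share of loop-free domains in both maps. Of its domains of the size range, 14 of 32 were loop-free in the saline map (43.8%, 26.4 to 62.3) and 18 of 37 in that of morphine (48.6%, 31.9 to 65.6). On the autosomes 69 of 643 saline domains (10.7%, 8.45 to 13.4) and 77 of 677 morphine domains (11.4%, 9.08 to 14.0) were loop-free. X supplied 16.9% of all saline and 18.9% of all morphine members, against 3.04% and 3.07% of the loop-holding domains.

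The autosomes also differed. Chromosome 17 followed X in the morphine map with 8 of 23 domains (34.8%, 16.4 to 57.3) and had 4 of 19 in the saline map (21.1%, 6.05 to 45.6). Chromosome 5 had 8 of 38 (21.1%) in the saline and 9 of 42 (21.4%) in the morphine map, and chromosome 18 had 3 of 16 (18.8%) in each. At the other end, chromosomes 16 and 20 had 0 loop-free domains in either map, of 18 and 16 domains in the saline map and of 15 and 17 in the morphine map. The saline map had 0 of 30 on chromosome 14, where the morphine map had 2 of 30. The morphine map had 0 of 17 on chromosome 10 and 0 of 15 on chromosome 19, where the saline map had 1 of 23 and 1 of 15. With so few domains per chromosome, a count of 0 allows wide shares, up to 21.8% for chromosome 19 by the exact interval. By number, the morphine map had more loop-free domains than the saline map on 10 chromosomes, fewer on 7 and as many on 4. This tally does not allow for the larger number of domains of the size range in the morphine map (714 against 675).

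**Figure D1:**
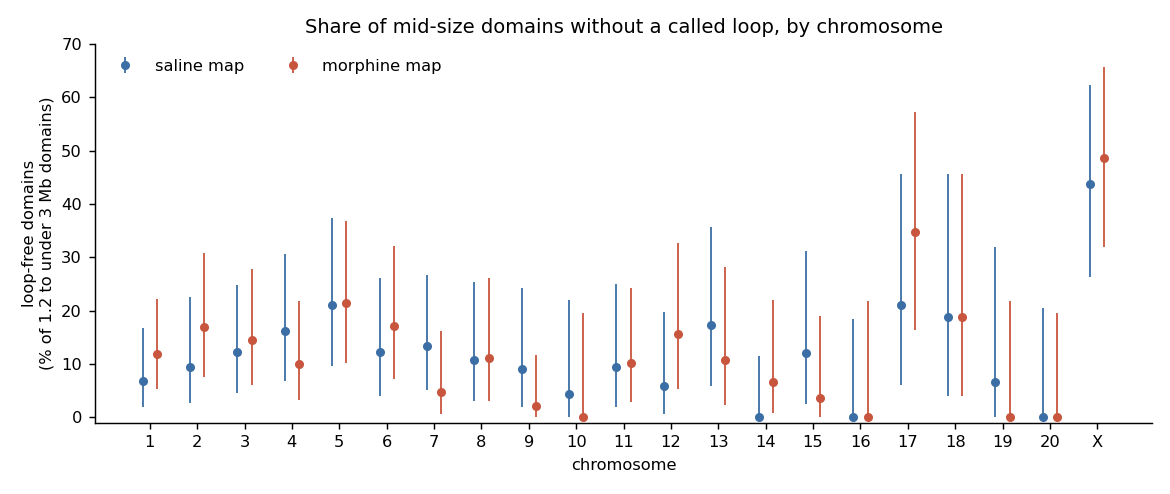
Share of domains of 1.2 to under 3 Mb that held no loop anchor of their own map (y axis, percent) for each chromosome (x axis), saline map in blue and morphine map in red; bars are exact 95% intervals over domains. Chromosome X stands highest in both maps, at 43.8% and 48.6%, and chromosomes 16 and 20 are at 0 in both.

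X also had the fewest loops and the lowest local background. It carried 0.453 loops per Mb of domain in the saline map and 0.615 in that of morphine, where the autosomes ranged from 1.08 (chromosome 17) to 6.11 (chromosome 19) and from 0.983 (chromosome 5) to 14.0 (chromosome 19). Among loops with 10 kb anchors spanning 100 to under 200 kb, the median number of contacts expected from the donut-shaped surroundings was 3.24 on X in the saline map, against 4.97 to 7.79 on the autosomes. The morphine value was 3.59 on X, against 5.48 to 15.8. The monkeys were male and their cells carry a single X. The X medians rest on 22 loops in the saline and 26 in the morphine map. The lowest background and the highest share of loop-free domains thus fell on the same chromosome, and the part of background contacts in that share was not tested.

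The loops of the other map give a measure that the choice of members did not use. Most loop-free domains held no anchor of the other map either. Of the 83 saline members, 31 held at least 1 morphine anchor (37.3%, 27.0 to 48.7), while 565 of 592 loop-holding saline domains did (95.4%, 93.4 to 97.0); over all saline domains of the size range it was 88.3%. Of the 95 morphine members, 36 held at least 1 saline anchor (37.9%, 28.1 to 48.4), against 579 of 619 loop-holding domains (93.5%, 91.3 to 95.3) and 86.1% of all. Hence 52 saline and 59 morphine members were without an anchor of either map. The intervals of loop-free and loop-holding domains lay far apart in both directions. On X, 4 of 14 saline members held a morphine anchor and 3 of 18 morphine members a saline anchor (28.6% and 16.7%), against 27 of 69 and 33 of 77 on the autosomes (39.1% and 42.9%).

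The anchors that did fall in loop-free domains were few. The saline members held 113 morphine anchors in 172 Mb, or 0.657 per Mb, and the loop-holding saline domains 8530 in 1200.1 Mb, or 7.11 per Mb. The density in members was 9.25% of that in loop-holding domains (7.61 to 11.1). Morphine members held 114 saline anchors in 181 Mb (0.630 per Mb) against 5866 in 1254 Mb (4.68 per Mb), which is 13.5% (11.1 to 16.2). These intervals count each anchor as independent although anchors come in pairs, so they are too narrow. The ratio rests on which loops count: with the strict lists it was 22.0% and 19.98%, and with 10 kb anchors alone 19.8% and 19.97%. The median loop-holding domain held 10 morphine anchors in the saline map and 8 saline anchors in the morphine map, and the median member held 0 in both.

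The share of domains with an other-map anchor rose with the number of same-map anchors. Among saline domains with exactly 1 saline anchor, 22 of 26 held a morphine anchor (84.6%), at a density of 1.06 per Mb. Those with 2 to 4 had 2.30 morphine anchors per Mb, those with 5 to 9 had 5.63 and those with 10 or more had 11.3. Of the morphine domains, 14 of 22 with exactly 1 morphine anchor held a saline anchor (63.6%). Their density of 0.510 saline anchors per Mb was not above the 0.630 of the loop-free domains, and the intervals overlapped (0.311 to 0.787 and 0.520 to 0.757). From there the density rose to 1.71, 3.14 and 6.89 per Mb over the same classes. From loop-free domains to domains with 1 anchor, the share of domains was therefore higher in both maps, and the density in the saline map alone. The saline density intervals met at 0.790 (0.542 to 0.790 and 0.790 to 1.39), and they are too narrow because anchors come in pairs. The classes with 1 anchor hold only 26 and 22 domains, and no interval is given for their shares.

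**Figure D2:**
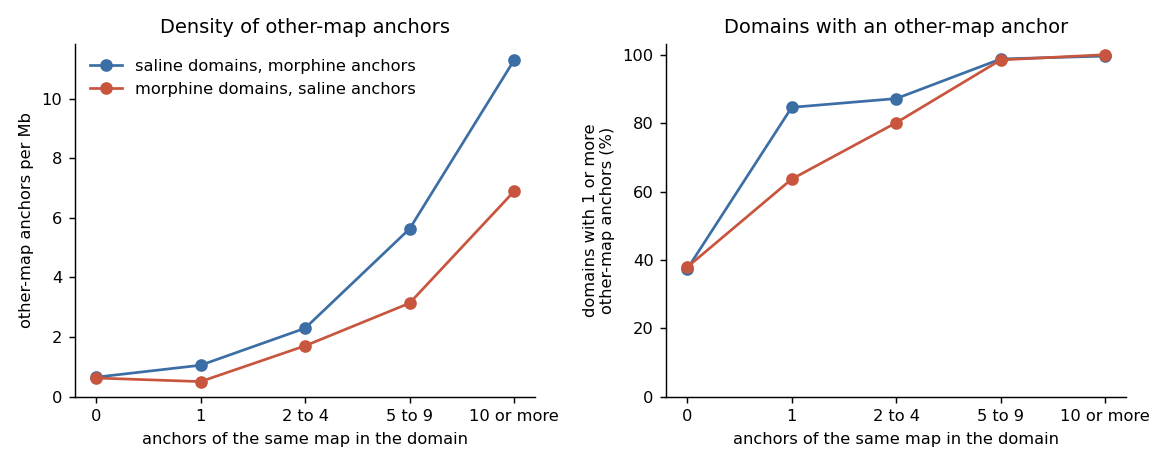
Anchors of the other map per Mb of domain (left, y axis) and share of domains with 1 or more of them (right, y axis, percent) against the number of same-map anchors in the domain (x axis), for saline domains (blue) and morphine domains (red) of 1.2 to under 3 Mb; each point is a class of domains pooled. Loop-free domains stand at 0.657 and 0.630 anchors per Mb and at 37.3% and 37.9% of domains.

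The other-map anchors were unevenly spread over the members. In the saline map 7 members held 1 morphine anchor, 10 held 2 and 6 held 5 or more. Of the morphine members, 4 held 1 saline anchor, 17 held 2 and 7 held 5 or more. The 5 members with the most anchors held 45.1% of all morphine anchors in saline members and 33.3% of all saline anchors in morphine members. Without the single domain with the most anchors the densities were 0.554 and 0.584 per Mb.

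**Figure D3:**
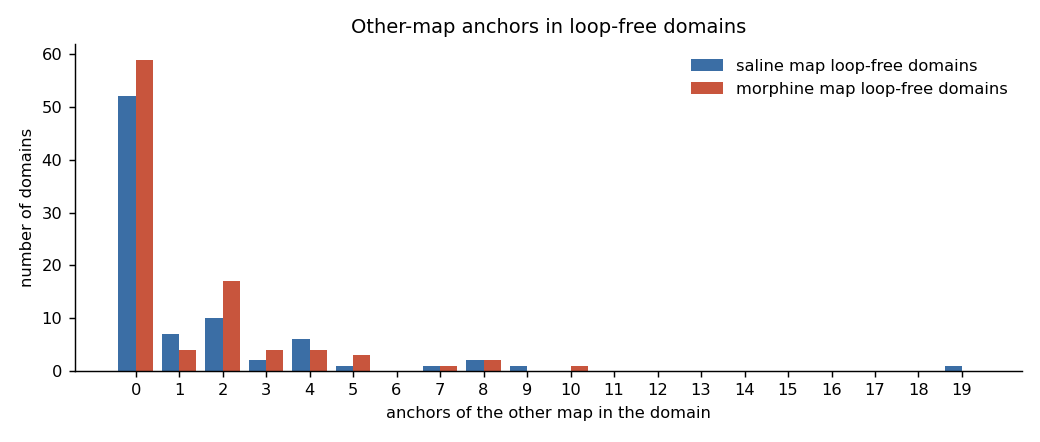
Number of loop-free domains (y axis) by the number of other-map anchors they held (x axis), for the saline map (blue) and the morphine map (red). At 0 anchors stand 52 saline and 59 morphine domains, and the saline domain at 19 anchors lies on chromosome 19.

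The saline member with the most morphine anchors lay on chromosome 19 from 25920001 to 28240000. It held 19 morphine anchors and 0 saline anchors, and 7 morphine loops lay wholly inside it, with 12 to 41 contacts each. The strongest of these by contacts joined 25970001 to 25980000 with 26400001 to 26410000, with 41 contacts against 15.7 expected, a 2.62-fold enrichment (Poisson interval 1.88 to 3.55). Chromosome 19 was the chromosome with the most loops per Mb in both maps, so a domain without any was the exception there. The morphine list had 0 loop-free domains on it.

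The next saline member lay on chromosome 1 from 2520001 to 5240000 and held 9 morphine anchors and 4 whole morphine loops. Among them was the loop with the most contacts of all morphine loops inside saline members, which joined 4620001 to 4630000 with 4860001 to 4870000. It had 63 contacts against 11.2 expected (5.62-fold, 4.32 to 7.19), with a donut FDR of 2.23e-20 in the authors' deposited table. This is a strongly supported loop at a place where the saline list has none. It was not in the authors' differential list. On chromosome 7, the domain from 112880001 to 114120000 held 8 morphine anchors, and its loop from 113960001 to 113970000 to 114090001 to 114100000 had 33 contacts against 5.96 expected (5.54-fold, 3.81 to 7.78). The domain on chromosome 4 from 18920001 to 20600000 held 8 morphine anchors and the domain on chromosome 5 from 4360001 to 6320000 held 7. Their strongest loops by contacts had 22 contacts (2.72-fold, 1.71 to 4.12) and 21 contacts (3.45-fold, 2.13 to 5.27). The deposited donut FDR of these loops was 0.0729 on chromosome 4 and 0.00229 on chromosome 5, so their support was weaker than that of the chromosome 1 loop.

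In the morphine map the member with the most saline anchors lay on chromosome 17 from 53880001 to 56760000. It held 10 saline anchors and 5 whole saline loops, the strongest by contacts with 28 contacts between 56600001 to 56610000 and 56720001 to 56730000 (3.50-fold, 2.33 to 5.07). On chromosome 8 the domain from 15080001 to 17000000 held 8 saline anchors. In it the saline anchor from 16460001 to 16470000 was joined both to 16790001 to 16800000, with 26 contacts (5.33-fold, 3.48 to 7.80), and to 16830001 to 16840000, with 22 contacts (4.63-fold, 2.90 to 7.01). These loops share an anchor and are not independent. On chromosome 3 the domain from 100400001 to 101800000 held 8 saline anchors, with a strongest loop of 24 contacts (4.38-fold, 2.81 to 6.52), and the domain from 144040001 to 146960000 held 7, with a strongest loop of 17 contacts (3.10-fold, 1.81 to 4.97). The domain on chromosome 6 from 105800001 to 108440000 held 5 saline anchors, and its strongest loop had 26 contacts (2.52-fold, 1.64 to 3.69). Loops were thus found in 1 map and not in the other in both directions, although the morphine map had more loops overall.

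Other-map loops inside members had lower median contacts over a lower median background than those of loop-holding domains. Loop span and anchor width were not held equal in this comparison and are given below. In the saline members, 45 morphine loops lay wholly inside 24 domains, and the other 23 anchors belonged to loops that left the domain. Their median was 19 contacts (15 to 23) over 4.37 expected (2.94 to 6.09), against 24 contacts (23 to 25) over 6.27 expected (6.07 to 6.49) for the 3952 morphine loops in loop-holding domains. The enrichment of observed over expected contacts was 4.38-fold (3.47 to 5.04) in members and 3.81-fold (3.73 to 3.89) in loop-holding domains. These intervals overlapped. Loops in members mostly lack a counterpart in the domain's own map, as a result of the rule. The closest class in loop-holding domains is the loops without a counterpart within 10 kb. It is not fully alike, because its domains hold own-map anchors elsewhere and members hold none. The 2274 morphine loops of that class had 23 contacts over 7.23 expected and an enrichment of 3.25-fold (3.18 to 3.31), below the interval of the members. In the morphine members, 49 saline loops lay wholly inside 30 domains, with 15 contacts (13 to 17) over 3.00 expected (2.41 to 4.32), against 20 contacts (19 to 20) over 4.34 (4.22 to 4.48) for 2721 loops. Their enrichment of 4.97-fold (4.22 to 5.97) had an interval that overlapped the 4.50-fold (4.41 to 4.60) of loop-holding domains. The 1025 saline loops without a counterpart had 19 contacts over 5.05 expected and 3.69-fold enrichment (3.58 to 3.83), again below the interval of the members. So against this class, the loops in members of both maps had a higher median enrichment over a lower median background, and the choice of members may still enter the difference. These values are not independent, because the background is the divisor of the enrichment. No listed loop had fewer than 8 contacts in either map, so a loop over a lower background enters the lists at a higher ratio. Whether the background differs at equal span and anchor width, or the enrichment at equal background, was not tested.

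Loop length differed in the morphine members. There the saline loops spanned a median of 280 kb (150 to 400) against 135 kb (130 to 140) in loop-holding domains. In the saline members the morphine loops spanned 150 kb (110 to 320) against 130 kb (125 to 140), with overlapping intervals. The loops without a counterpart had a median span of 120 kb (110 to 130) in both maps. Loops with 10 kb anchors made up 68.9% (53.4 to 81.8) of the morphine loops in saline members and 49.0% (47.4 to 50.5) in loop-holding domains, where it was 57.4% (55.4 to 59.5) for loops without a counterpart. For the saline loops in morphine members the shares were 81.6% (68.0 to 91.2) and 63.8% (62.0 to 65.6), and 78.9% (76.3 to 81.4) without a counterpart, which lies inside the interval of the members. The strict FDR limit of 0.01 on all 4 backgrounds of the authors' deposited table was met by 44.4% of the loops in saline members and by 34.7% of those in morphine members, against 44.7% and 46.0% in loop-holding domains and 33.8% and 33.2% of the loops there without a counterpart. The members' intervals (29.6 to 60.003 and 21.7 to 49.6) included both bases.

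Some of these loops were in the authors' deposited differential lists, whose rule is not stated in the labels or file headers. Of the 45 morphine loops inside saline members, 13 were listed (28.9%, 16.4 to 44.3), spread over 10 domains. The list holds 7.09% of all morphine loops. Of the 49 saline loops inside morphine members, 7 were listed (14.3%, 5.94 to 27.2), each in a different domain, and the saline-side list holds 3.69% of all saline loops. A loop inside a member cannot have a counterpart there in the domain's own map, which raises these shares by the choice of members. Among the loops of loop-holding domains without a counterpart within 10 kb, 272 of 2274 morphine loops were listed (12.0%, 10.7 to 13.4) and 94 of 1025 saline loops (9.17%, 7.47 to 11.1). The interval of the saline members lay above that share and the interval of the morphine members included it. Those loops lie in domains that hold own-map anchors, so this base does not remove all effect of the choice of members. Without the chromosome 19 domain with the most morphine anchors the saline-member share was 26.3% (13.4 to 43.1). Most other-map loops in members of either map were not listed as differential.

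No loop of either map spanned a member from one side to the other, among 83 saline and 95 morphine members. Spanning was rare in general: 5 of 592 saline and 7 of 619 morphine loop-holding domains were spanned by a loop of their own map (0.845% and 1.13%), and 10 and 3 by a loop of the other map (1.69% and 0.485%). These shares lie inside the intervals that 0 members allow (up to 4.35% and 3.81%). The 40 kb boundary bins that flank a domain lie outside it, and an anchor there does not count against membership. A flanking bin held an anchor of the same map at 9 of 83 saline members (10.8%, 5.08 to 19.6) and at 5 of 95 morphine members (5.26%, 1.73 to 11.9). For loop-holding domains it was 24.3% (20.9 to 28.0) and 42.3% (38.4 to 46.3). No member had anchors in both flanking bins. The anchors in these bins belong to the same loop lists as the rule, so the difference is given as a description.

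The boundary scores of loop-free domains differed little from those of loop-holding domains. The domain lists give a strength score at each end, on a scale that is not stated. The lower of the scores of a domain's ends had a median of 0.477 in saline members (0.436 to 0.528) and 0.531 in loop-holding saline domains (0.507 to 0.544). The morphine medians were 0.507 (0.447 to 0.581) and 0.508 (0.489 to 0.529). Over single ends, the medians were 0.646 and 0.700 in the saline map and 0.661 and 0.669 in the morphine map. The saline medians were lower in members with overlapping intervals, and the morphine medians were nearly equal.

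Members with strong boundaries existed in both maps. In the saline map the highest lower scores were 1.33 (chromosome 7, 22080001 to 24760000), 1.29 (chromosome 2, 193040001 to 195560000) and 1.24 (chromosome 3, 43760001 to 45320000). Those of the morphine map were 1.11 (chromosome 6, 105800001 to 108440000), 1.05 (chromosome 7, 21960001 to 24800000) and 1.03 (chromosome 17, 53880001 to 56760000). The chromosome 7 domains of the saline and morphine maps overlapped over at least 80% of the longer, with 1 end matched within 40 kb. They held no anchor of either map. Their ends had scores of 1.60 and 1.33 in the saline map and of 1.22 and 1.05 in the morphine map. Each map thus called a well-marked domain there without any called loop, although the left ends differed.

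The ends of loop-free domains were found in the other map less often. A boundary of the morphine map lay within 40 kb of 72 of the 166 ends of saline members (43.4%, 35.7 to 51.3), against 57.2% (54.3 to 60.0) of the 1184 ends of loop-holding saline domains. A saline boundary matched 63 of the 190 ends of morphine members (33.2%, 26.5 to 40.3), against 56.2% (53.4 to 59.0) of 1238 ends. The intervals did not overlap in either map. With boundaries at the same bin the shares were 14.5% and 25.8% in the saline and 10.5% and 24.3% in the morphine map. Both ends matched for 17 of 83 saline members (20.5%) and 13 of 95 morphine members (13.7%), against 35.1% and 35.2% of loop-holding domains.

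The same order was seen within classes of boundary score. Ends with a score under 0.5 matched in 32.8% of cases in saline members and 37.2% in loop-holding domains, ends of 0.5 to under 0.8 in 42.9% and 57.4%, and ends of 0.8 or more in 54.2% (40.8 to 67.3) and 70.2% (65.8 to 74.4). The morphine shares were 17.0% (8.07 to 29.8) and 39.7% (34.5 to 45.0), 27.6% (18.0 to 39.1) and 56.9% (52.1 to 61.6), and 54.1% and 68.5%. The gap was thus present in all 3 classes of both maps, and the intervals were apart in the lower 2 classes of the morphine map. On X alone, 10 of 28 ends of saline members and 14 of 36 ends of loop-holding domains matched (35.7% and 38.9%), and 9 of 36 and 15 of 38 in the morphine map (25% and 39.5%). On the autosomes the shares were 44.9% (36.5 to 53.6) and 57.8% (54.8 to 60.6) in the saline map and 35.1% (27.6 to 43.2) and 56.8% (53.9 to 59.6) in the morphine map.

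**Figure D4:**
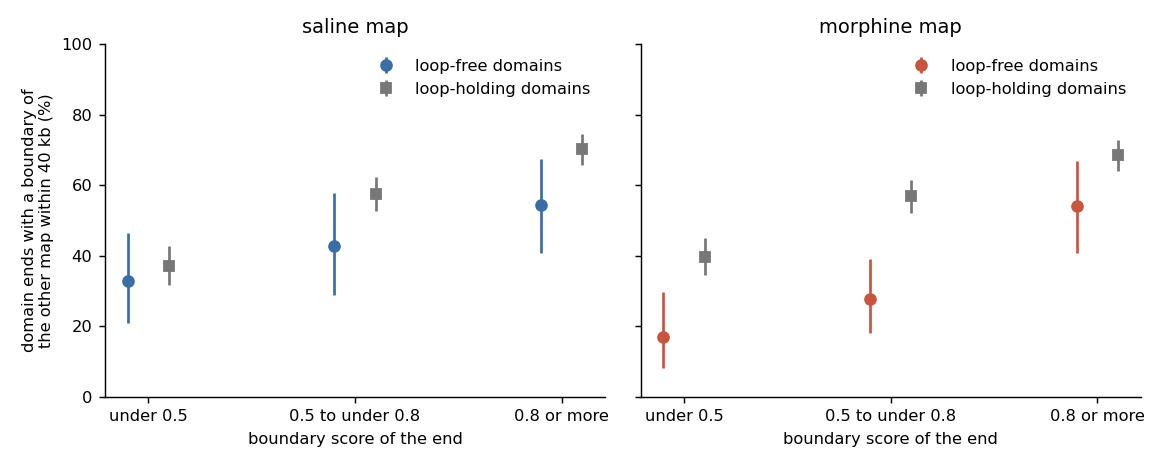
Share of domain ends with a boundary of the other map within 40 kb (y axis, percent) by the boundary score of the end (x axis), for loop-free domains (coloured circles) and loop-holding domains (grey squares) in the saline map (left) and the morphine map (right); bars are exact 95% intervals over ends. Loop-free domains lie lower in all 3 classes of both maps, with 17.0% against 39.7% in the lowest morphine class.

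Inner boundaries of the other map differed in direction between the maps. A saline boundary lay inside 46 of 95 morphine members (48.4%, 38.0 to 58.9), against 33.1% (29.4 to 37.0) of the loop-holding morphine domains. A morphine boundary lay inside 25 of 83 saline members (30.1%, 20.5 to 41.2), against 38.7% (34.7 to 42.7). Inner boundaries were more frequent in members of the morphine map and, with overlapping intervals, less frequent in members of the saline map. Every boundary inside a domain and beyond the 40 kb of a match was counted, so a shifted end counts like a dividing boundary. The chromosome 8 morphine member from 80200001 to 83000000 held 2, which were the ends of its saline partner (80280001 to 82920000). The share of domains that were divided was not measured.

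Whole domains were also compared. A partner was the domain of the other map that shared at least 80% of the longer of the pair. Of the saline members, 62 of 83 had a partner (74.7%, 64.0 to 83.6), close to the 76.9% of loop-holding domains. Of the morphine members, only 47 of 95 did (49.5%, 39.1 to 59.9), against 74.0% (70.3 to 77.4) of loop-holding domains. Among the saline members with a partner, 23 had a partner that was loop-free and in the size range too (37.1%, 25.2 to 50.3), 8 had a partner without anchors of another size, and 31 had a partner with anchors of the morphine map. Among the morphine members with a partner these numbers were 23 (48.9%, 34.1 to 63.9), 4 and 20. For loop-holding domains with a partner, 18 of 455 in the saline map (3.96%, 2.36 to 6.18) and 31 of 458 in that of morphine (6.77%, 4.64 to 9.47) had a loop-free one.

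By length, the saline members covered 172 Mb (6.52% of the domains' summed length) and the morphine members 181 Mb (6.86%). The sets overlapped over 57.0 Mb, which is 33.2% of the saline and 31.5% of the morphine length. The largest domains that were loop-free in both maps included, at their saline positions, the chromosome 7 domain just given, 2 domains of X (75440001 to 78120000, 105680001 to 108320000), a chromosome 8 domain (80280001 to 82920000) and a chromosome 17 domain (51200001 to 53800000). Shared status rests on overlap: both X domains and the chromosome 8 domain had no end matched within 40 kb, and those of chromosomes 7 and 17 had 1 each. By morphine size, a chromosome 2 domain (192800001 to 195560000) and a chromosome 13 domain (13080001 to 15480000) were among the 5 largest, with 1 and 2 ends matched. The chromosome 2 domain had a strong right end in both maps, with scores of 1.90 in each.

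The anchor-free stretches around members are measured on the same loop lists as the rule, and each must be longer than the domains it holds, so they are given as a description. The stretch between the last anchor before a member and the first after it had a median of 3.65 Mb over saline members (3.20 to 4.39) and 4.68 Mb over morphine members (3.68 to 5.67). The nearest anchor outside a member was a median of 0.205 Mb away in the saline map (0.163 to 0.275) and 0.292 Mb in that of morphine (0.205 to 0.443). Outside loop-holding domains the nearest was 0.113 Mb away (0.095 to 0.123) in the saline and 0.055 Mb (0.045 to 0.065) in the morphine map. The 83 saline members fell in 71 such stretches and the 95 morphine members in 74.

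The longest stretch was on X and had nearly the same limits in both maps. In the saline map it ran from 69105001 to 94665000, 25.6 Mb without a saline anchor. In the morphine map it ran from 69095001 to 94845000, 25.8 Mb without a morphine anchor. Inside it lay 0 morphine anchors in the saline case and 3 saline anchors in the morphine case. These 3 lay at or outside the limits of the saline stretch, near the edges of the longer morphine stretch. It held 7 domains in the saline map, of which 3 were members, 3 were longer and 1 was shorter, and 9 domains in the morphine map, of which 7 were members and 2 were longer. Boundaries were called within it, with scores up to 0.935 in the saline map and up to 1.16 in the morphine map. Of the domain ends in the stretch, 4 of 14 in the saline map and 4 of 18 in that of morphine had a match within 40 kb. Among the ends of all members on X it was 10 of 28 and 9 of 36. The counts of the stretch include ends of longer or shorter domains, and those of X include the members of the stretch, so the sets are unlike and overlap. The stretch was singled out after its length was seen.

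Other long stretches were found in both maps too. On X a stretch of 12.9 Mb in the saline map, from 24585001 to 37497500, and of 14.9 Mb in the morphine map, from 23567501 to 38457500, held 3 members in each. On chromosome 17 a stretch began at 45145001 in both maps and ended at 53945000 in the saline map (8.80 Mb, 3 members) and at 57115000 in the morphine map (12.0 Mb, 4 members). The saline loops in the last part of that morphine stretch are those of the chromosome 17 domain with 10 saline anchors described above. In all, 4 stretches of 10 Mb or more held 8 saline members, and 4 held 16 morphine members. Of these stretches 3 and 2 were on X.

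**Figure D5:**
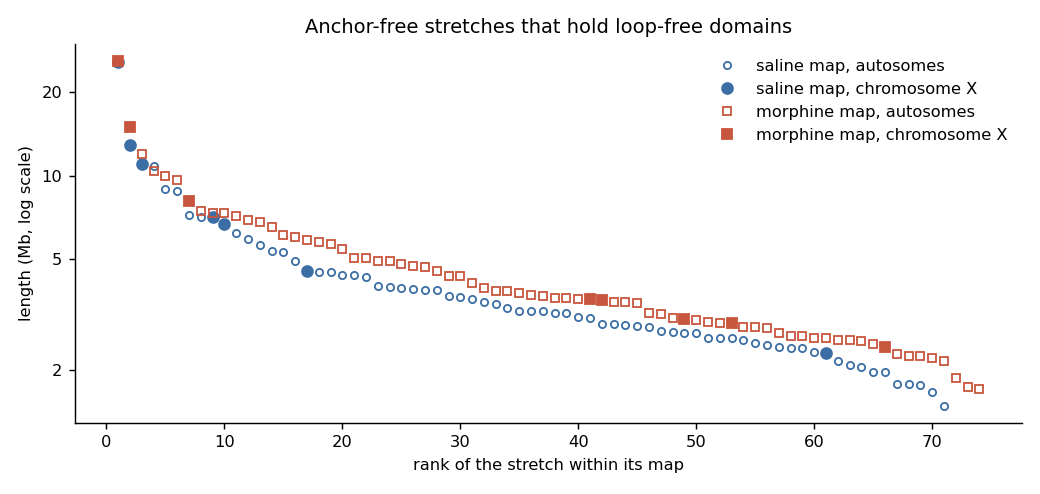
Length of each anchor-free stretch that holds loop-free domains (y axis, Mb, log scale), ranked within its map (x axis), for the saline map (blue circles) and the morphine map (red squares), with stretches on chromosome X filled. The longest, 25.6 Mb in the saline and 25.8 Mb in the morphine map, are on X.

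Loop-free domains bordered each other in some of these stretches. In the saline map 14 of the 83 members lay in 6 runs of adjacent members and 69 lay alone. Among morphine members, 25 of 95 lay in 9 runs and 70 lay alone. The longest saline runs were of 3 domains on X, from 24720001 to 32200000 and from 105680001 to 112000000, both without a morphine anchor, followed by runs of 2 such as that on X from 41680001 to 46840000, with 4 morphine anchors. In the morphine map a run of 5 on X reached from 69240001 to 77920000 without a saline anchor, a run of 4 on chromosome 17 from 49000001 to 56760000 with 10, and a run of 3 on X from 105600001 to 112080000 with 0. The run of 3 on X that begins at 105680001 in the saline and at 105600001 in the morphine map was thus present in both by overlap. Each of its domains had a loop-free partner, but none of their ends had a boundary of the other map within 40 kb.

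The neighbours of loop-free domains, whatever their size, are also described by the loop lists that chose the members. A member cannot share a loop with its neighbour, and adjacent members count as each other's anchor-free neighbours, so the values below are no independent difference. Among the domains next to saline members, 34 of 163 had no saline anchor (20.9%, 14.9 to 27.9), against 14.6% (12.6 to 16.7) next to loop-holding domains, and the neighbours carried 2.81 against 4.23 anchors per Mb. Next to morphine members 59 of 188 had no morphine anchor (31.4%, 24.8 to 38.5), against 12.0% (10.2 to 13.9), and the densities were 2.09 and 6.53 per Mb. Position along the chromosome was not used by the rule. Within 5 Mb of the end of a chromosome's domain list lay 5 of 83 saline members (6.02%, 1.98 to 13.5) and 69 of 592 loop-holding domains (11.7%, 9.18 to 14.5), with overlapping intervals. Of the morphine members 2 of 95 lay there (2.11%, 0.256 to 7.40), against 12.3% (9.80 to 15.1). As the outermost domain of a list, members were about as frequent as loop-holding domains in the saline map (3.61% and 3.89%), and the morphine shares were 2.11% and 4.04%.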

How the data were processed

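Hi-C loop and domain lists of cortical neurons were used, 1 of each kind per group, with the authors' differential loops. Contacts per loop pixel are counts as deposited, whole numbers that sum to different totals; the donut-expected contacts are a background signal and the FDR columns are q-values (p-value type), both as deposited by the authors. Boundary scores are deposited without a stated scale. The programs for alignment, loops and domains were not given in the sources used here. As genome build, hg19 stands in the submitters' processing notes, although some positions in the lists run past the ends of those human chromosomes.

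Anchor midpoints were counted in domains with Python 3.11.15, pandas 2.3.3, NumPy 2.4.6 and SciPy 1.17.1, and the counting was tested on simulated domains. Boundaries matched within 40 kb. Loop counterparts needed both anchors to overlap after an extension of 10 kb. A stretch runs between anchor midpoints, and the Poisson intervals of enrichment cover counting error only. No test was run, since each group has 1 pooled map. Domains were named by size, lower score, other-map anchors, run length and loop-free status in both maps (3 or 5 per rule); the stretches were added after their values were seen. Members and lists were chosen with earlier results of these data known. Alternatives covered the anchor rule, loop strictness, anchor width, list length, size range, chromosomes, score, tolerance and overlap.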

Additional observations from a re-analysis of the deposited data

How the results depend on the processing

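Of 174 recomputed values under 12 alternative settings, 135 stayed within the spread of the reported value or 1.5 times its count and 39 moved. These are counts, shares and medians without a sign, so none could reverse, and some do not depend on the setting changed (saline boundary scores when the morphine list was cut). Loop-free domains stayed below loop-holding domains in the share with an other-map anchor and in matched ends under every setting run. The gap in lower boundary score changed sign in the morphine map, from -0.00134 to 0.0347 at 1.5 to under 2.5 Mb and 0.00549 without chromosomes 10, 16, 19 and 20. Unless the setting's construction shows it (fewer loops, fewer domains, another tolerance), the cause was not tested. No setting varied the depth of the maps. No paired analysis was possible because the lists are pooled per group and carry no replicate number, and for the same reason no library could be left out.

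With loops at an FDR of 0.01 or less against all 4 backgrounds, loop-free domains numbered 160 in the saline map (23.7%) and 170 in that of morphine (23.8%), with 54 loop-free partners in each. Loop-holding domains then held an other-map anchor in 89.7% and 86.0% of cases, and the density ratio was 22.0% and 19.98%. With 10 kb anchors alone, the loop-free share was 18.1% and 17.4%, the share of loop-holding domains 92.8% and 89.5%, and the ratio 19.8% and 19.97%. With the morphine list cut to the length of the saline list, a morphine anchor lay in 25.3% of saline members and 90.9% of loop-holding domains, with a ratio of 6.64%. The morphine loop-free share was then 18.5%, and 48.5% of those members held a saline anchor. At 1.5 to under 2.5 Mb there were 47 saline and 49 morphine members, with 15 loop-free partners in each, and in the morphine map 95.3% of loop-holding domains held a saline anchor and the ratio was 10.9%. The mean score of both ends had medians of 0.719 and 0.738 (members, loop-holding) in the saline map and 0.665 and 0.710 in the morphine map. Ends matched at the same bin in 14.5% and 25.8% (saline) and 10.5% and 24.3% (morphine), and within 80 kb in 60.8% and 73.9% and in 48.9% and 72.6%.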
